A study of Mus musculus with 9 samples.

Results

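The Ifi200 cluster is a group of interferon-inducible genes on mouse chromosome 1, and 7 of its genes are described here: Ifi202b, Ifi203, Ifi204, Ifi205, Ifi207, Mndal and Aim2. They were taken by symbol from the 54838 genes of the deposited RPKM matrix (reads per kilobase of gene, scaled to library size). The set was chosen by measured values of these libraries, because Ifi202b was near absent in wild type and high in all 6 knockout libraries, and the other 6 genes were taken as its neighbours and paralogues. The contrasts of Ifi202b with wild type are therefore given as a description, without a test. A gene entered the test when 3 or more of the 9 libraries reached 1 RPKM, and 4 of the 7 genes did so (Ifi202b, Ifi204, Ifi207 and Mndal). Ifi203, Ifi205 and Aim2 did not.

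The RNA came from corona radiata cells, the granulosa cells that enclose the oocyte, taken from adult mice after PMSG and hCG, the hormones that drive follicle growth and ovulation. There were 3 libraries each of wild type (WT), of mice without either liver X receptor (DKO LXR, here LXR DKO), nuclear receptors for oxysterols, and of the same double knockout carrying the transgene TG-AMH-LXRb (transgenic). Both are called knockout groups here; the transgenic group carries the double knockout together with a transgene named for LXRb. The labels name neither the mouse strain of any group nor the promoter of the transgene beyond its name, and they add the term J4 to the hormone treatment without saying what it is. They do not say that libraries came from separate animals, so p-values reflect the spread among these libraries alone, and that spread may be technical.

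The Ifi200 genes encode the mouse members of the PYHIN (HIN-200) family, most of which join a pyrin domain, which binds other pyrin domains, to a HIN domain, which binds DNA. AIM2 senses DNA in the cytosol and assembles an inflammasome, the complex that activates caspase-1. IFI202B has HIN domains and no pyrin domain and can hold DNA away from AIM2, and its transcript level is known to differ widely between inbred mouse strains. Interferons induce many genes of the family, mainly in leukocytes.

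The sequence upstream of the start site was compared between members, as a description without a test. RefSeq (build GRCm38.p6) held an upstream sequence for 6 of the 7 members, all but Ifi204, at 8 start sites. The letters of 2 motifs, which do not overlap in these windows, were searched on both strands in the 250 bases before each start. They were the core of the interferon-stimulated response element, which is GAAA, any 2 bases and GAAA again, and the gamma-activated site, TTCNNNGAA. Of 32851 mouse promoters of that length, 2.98% held the first and 7.02% the second. The first was present for 4 of the 6 members, Ifi203, Ifi205, Ifi207 and Mndal, and also for 5 of 6 other genes of the cluster (Ifi206, Ifi208, Ifi211, Ifi213 and Ifi214). It was not found before Ifi202b, Aim2 or Ifi209. Below, the whole 250 bases are shown for Ifi202b (chr1:173982845-173983094, minus strand) and for Ifi207 (chr1:173741810-173742059, minus strand), with motif matches in capitals. For Ifi202b the capitals mark a gamma-activated site match that begins 148 bases before the start, and for Ifi207 a response element core that begins 41 bases before it.
Ifi202b: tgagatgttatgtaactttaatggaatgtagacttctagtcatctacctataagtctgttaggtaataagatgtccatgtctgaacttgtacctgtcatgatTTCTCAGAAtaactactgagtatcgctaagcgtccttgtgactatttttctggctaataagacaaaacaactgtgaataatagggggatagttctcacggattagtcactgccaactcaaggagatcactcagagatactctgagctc
Ifi207: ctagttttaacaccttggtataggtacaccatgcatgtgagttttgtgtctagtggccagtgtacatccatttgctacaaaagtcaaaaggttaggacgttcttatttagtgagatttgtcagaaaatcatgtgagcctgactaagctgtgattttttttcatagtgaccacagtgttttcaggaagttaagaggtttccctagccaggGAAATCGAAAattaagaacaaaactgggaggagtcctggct

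The 30 bases around the response element core, again in capitals, show how alike the matches of other members were. They are on the minus strand at chr1:173880204-173880233 (Mndal), chr1:173942508-173942537 (Ifi203) and chr1:174031870-174031899 (Ifi205), beginning 36, 35 and 134 bases before the start.
Mndal: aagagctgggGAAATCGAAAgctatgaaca
Ifi203: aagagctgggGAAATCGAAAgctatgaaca
Ifi205: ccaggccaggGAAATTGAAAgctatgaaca
The Mndal and Ifi203 sites have the same 30 bases. Mndal had a further core match on the other strand, 54 bases before a second start, and the second start of Ifi203 had none. A match here is a description of letters and not a binding site, and the absence of one says only that these letters are not in that window. The RefSeq starts are not all those of the gene models given below. The Ifi202b window begins at 173982845 and the model ends at 173982744, so the bases between them were not searched. The Aim2 and Mndal windows lie inside the spans of their models.

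The members lie between positions 173350879 and 174031810 of chromosome 1 (mm10, gene models of GENCODE M21). Aim2 is the outermost gene on the low side (ENSMUSG00000037860, 173350879 to 173466040, plus strand). The others are on the minus strand. In order they are Ifi207 (ENSMUSG00000073490, 173723427 to 173741747), Ifi204 (ENSMUSG00000073489, 173747293 to 173766943), Mndal (ENSMUSG00000090272, 173849126 to 173942491), Ifi203 (ENSMUSG00000039997, 173920407 to 173942672), Ifi202b (ENSMUSG00000026535, 173962568 to 173982744) and Ifi205 (ENSMUSG00000054203, 174011998 to 174031810). The annotated span of Mndal contains Ifi211 and overlaps Ifi203 on the same strand, so reads in the overlap can belong to either gene.

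Depth was similar between groups. Reads in genes, worked back from RPKM and exon length, numbered 29353110 to 43264167 per library, so that 3 reads on a gene of 1 kb corresponded to 0.0638 to 0.0965 RPKM. Of the targeted receptor genes, Nr1h2 had 39.7 to 45.7 RPKM across WT, 2.85 to 3.57 across LXR DKO and 4.83 to 6.70 across transgenic libraries. Nr1h3 had 3.50 to 5.72, 0.713 to 1.08 and 0.395 to 0.819 RPKM. Markers of other cells varied between libraries. WT 1 had a summed RPKM of 810 for 10 oocyte markers and LXR DKO 1 had 491, against 1.77 to 55.5 in the other 7 libraries, and that of 7 erythroid markers was 9881 in WT 3 against 58.6 to 971 elsewhere. Granulosa markers summed to 1150 to 1344 RPKM in WT and to 596 to 809 over the 6 knockout libraries.

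Ifi202b was the member with the widest range. Its level was 0.576, 0.732 and 1.00 RPKM in WT 1 to 3. In LXR DKO 1 to 3 it was 35.1, 31.2 and 35.0 RPKM, and in transgenic 1 to 3 it was 34.7, 46.0 and 25.5 RPKM. All 6 knockout libraries were far above all 3 WT libraries, and the ranges of the 2 knockout groups overlapped. The reads behind these values were 43, 46 and 80 across WT, 1769 to 2499 across LXR DKO and 1471 to 2730 across transgenic. The 95% Poisson intervals of the WT values were 0.417 to 0.775, 0.536 to 0.977 and 0.795 to 1.25 RPKM. They cover counting error only. The gene was thus low in WT but above the limit of detection.

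Means were 0.770 ± 0.216 RPKM in WT, 33.8 ± 2.27 in LXR DKO and 35.4 ± 10.2 in transgenic (SD, n = 3 each). The LXR DKO mean was 43.9 times and the transgenic mean 46.0 times the WT mean. The lowest LXR DKO library was 31.1 times the highest WT library, and the lowest transgenic library 25.5 times. On the log2(RPKM + 1) scale, which understates changes of low genes, Ifi202b was higher than WT by 4.30 ± 0.19 in LXR DKO and by 4.33 ± 0.19 in transgenic libraries (SE). These differences chose the gene, and no test is attached to them. Since this is bulk RNA, more cells with the transcript and more transcript per cell cannot be told apart.

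**Figure D1:**
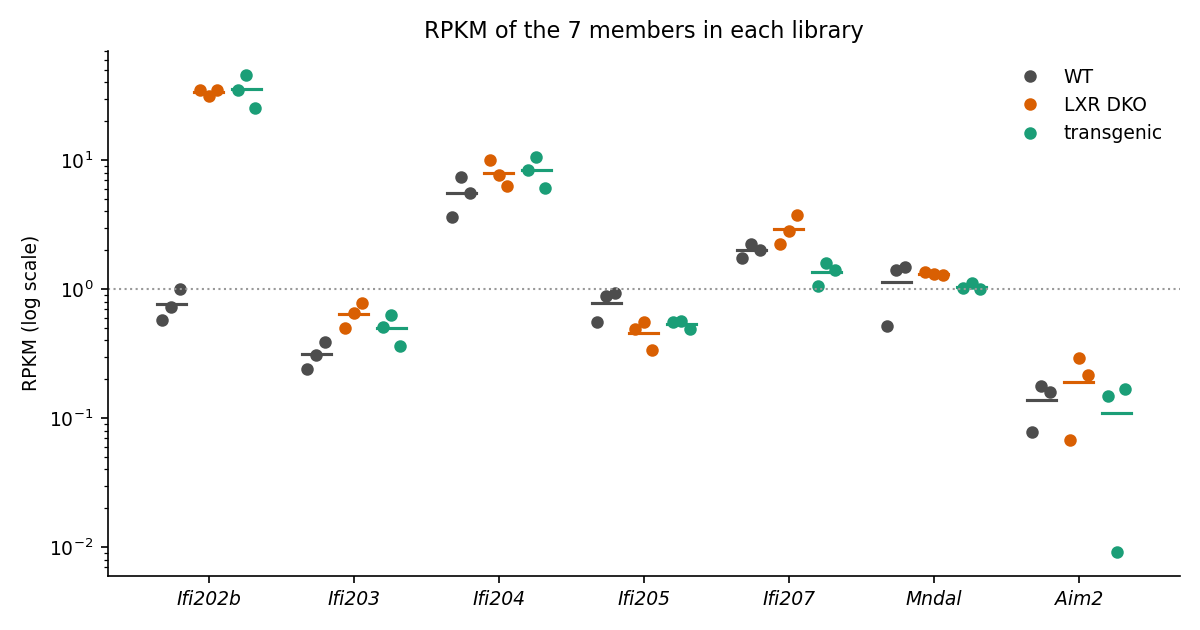
RPKM of the 7 members (log axis) in each of the 9 libraries, coloured by genotype, with a bar at the mean of each group of 3 and a dotted line at 1 RPKM, the filter value. Ifi202b lies between 0.576 and 1.00 in WT and between 25.5 and 46.0 in the other 6 libraries. The group means of each other member lie closer together than those of Ifi202b.

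Transgenic minus LXR DKO was 0.03 ± 0.19 (SE) on the log2 scale for Ifi202b. The gene was chosen as high in both groups, so this too is a description without a test. Values in transgenic libraries were more scattered than in LXR DKO, and the highest and the lowest of the 6 knockout values were both transgenic.

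Within WT the order of the members by mean RPKM was Ifi204, Ifi207, Mndal, Ifi205, Ifi202b, Ifi203 and Aim2. In LXR DKO it was Ifi202b, Ifi204, Ifi207, Mndal, Ifi203, Ifi205 and Aim2, and in transgenic it was the same but with Ifi205 before Ifi203. Ifi202b thus moved from the fifth place to the first. In WT its range overlapped those of Ifi205 and Mndal, and in both knockout groups its lowest library was above every library of Ifi204, the next gene. Ifi202b stood above 4.31% to 6.03% of the tested genes in WT libraries. It stood above 86.9% to 88.7% of them in LXR DKO and 83.1% to 91.5% in transgenic libraries.

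Genes of this cluster are duplicates of one another, and how the authors' counting treated reads that fit several of them is not given in the sources used here. Stretches of 50 bases of each member's annotated transcripts were therefore looked up in the transcripts of all other genes. Of 1648 such stretches of Ifi202b, 0 occurred in another gene, and at 75 bases 0 of 1623 did. For the other members the share at 50 bases was 0.742% in Aim2, 7.29% in Ifi207, 12.4% in Ifi203, 18.6% in Ifi205, 19.6% in Mndal and 20.0% in Ifi204. Ifi202b reads thus have no annotated exact copy of those lengths to fall into, while values of Ifi203, Ifi204, Ifi205 and Mndal are less certain.

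Of the 3 other members in the test, 0 passed the threshold of an adjusted p under 0.05 (limma, Benjamini-Hochberg over 16422 genes) in LXR DKO minus WT, where 10.6% of all tested genes passed. In transgenic minus WT 0 of 3 passed, against 11.9% of all tested genes, and in transgenic minus LXR DKO 0 of 3, against 0.116%. In a fit to reads, which had all 6 other members, 0 of 6 did, against 0.073%. Over all tested genes 4354, 4997 and 1330 had an unadjusted p under 0.05 in these comparisons. Under each of the 20 alternative settings tried, limma-voom on reads included, the member counts were also 0. With so few members this neither separates them from other genes nor shows that they did not change.

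Ifi204 encodes p204, a DNA-binding family member that takes part in interferon responses and cell differentiation. Its level was 3.65, 7.46 and 5.55 RPKM across WT, 9.94, 7.72 and 6.26 across LXR DKO and 8.35, 10.5 and 6.12 across transgenic libraries. WT 1 was the lowest library and the 3 groups overlapped. LXR DKO minus WT was 0.48 ± 0.25 on the log2 scale (limma adjusted p = 0.277), and transgenic minus WT was 0.52 ± 0.25 (limma adjusted p = 0.201). Ifi204 was the most abundant family gene in every WT library and was second to Ifi202b in all 6 others.

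Ifi207, a pyrin and HIN domain gene with a response element core upstream, was the member whose values separated the transgenic libraries. It was at 1.75, 2.25 and 1.99 RPKM across WT, 2.22, 2.80 and 3.75 across LXR DKO and 1.07, 1.59 and 1.40 across transgenic libraries. All 3 transgenic libraries were below every library of the other groups, whereas LXR DKO and WT overlapped. Transgenic minus LXR DKO was -0.73 ± 0.16 on the log2 scale (limma adjusted p = 0.222, unadjusted p = 0.00156). LXR DKO minus WT was 0.37 ± 0.16 (limma adjusted p = 0.181) and transgenic minus WT was -0.35 ± 0.16 (limma adjusted p = 0.176). None passed, and in no setting tried did any pass.

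Mndal, a nuclear family member with pyrin and HIN domains, was at 0.520, 1.41 and 1.47 RPKM across WT, 1.36, 1.31 and 1.28 across LXR DKO and 1.02, 1.11 and 1.01 across transgenic libraries. The transgenic libraries were all below the LXR DKO libraries, and WT spanned both, with WT 1 far below the rest. The differences on the log2 scale were 0.15 ± 0.18 for LXR DKO minus WT (limma adjusted p = 0.654), -0.03 ± 0.18 for transgenic minus WT (limma adjusted p = 0.928) and -0.18 ± 0.18 for transgenic minus LXR DKO (limma adjusted p = 0.852). Without WT 1, LXR DKO minus WT was of the opposite sign, at -0.08.

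The remaining members were too low for the filter, and their values are read with the reads behind them. Ifi203, a nuclear protein of the family, was at 0.240, 0.306 and 0.390 RPKM across WT (71 to 123 reads), 0.498, 0.651 and 0.774 across LXR DKO (140 to 179 reads) and 0.512, 0.628 and 0.365 across transgenic libraries (83 to 159 reads). The LXR DKO libraries were all above the WT libraries, while transgenic 3 lay among the WT values. Limma-voom on the reads, with a filter of at least 10 reads in at least 3 libraries, gave 1.01 ± 0.29 for LXR DKO minus WT (log2, limma-voom adjusted p = 0.0747) and 0.67 ± 0.29 for transgenic minus WT (limma-voom adjusted p = 0.189). Of the 21914 genes in that fit, 5.87% passed in the first comparison and 6.69% in the second.

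Ifi205, known for raising the adaptor ASC of the inflammasome, lay the other way. It was at 0.555, 0.880 and 0.926 RPKM across WT, 0.491, 0.551 and 0.340 across LXR DKO and 0.553, 0.570 and 0.494 across transgenic libraries. Every LXR DKO library was below every WT library, and the transgenic range reached just into that of WT. The read-based fit gave -0.76 ± 0.28 for LXR DKO minus WT (log2, limma-voom adjusted p = 0.149) and -0.51 ± 0.27 for transgenic minus WT (limma-voom adjusted p = 0.260). Ifi205 is the next family gene beyond Ifi202b on the high side.

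Aim2, the inflammasome sensor, was close to the floor in all libraries. It was at 0.0779, 0.177 and 0.158 RPKM across WT, 0.0681, 0.290 and 0.215 across LXR DKO and 0.148, 0.00919 and 0.168 across transgenic libraries, from 1 to 34 reads. The groups overlapped fully, and a difference between them was not detectable at this depth (LXR DKO minus WT 0.24 ± 0.81 on the log2 scale, limma-voom adjusted p = 0.901).

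Of the 6 members other than Ifi202b, whose separation from WT was the reason for its choice, the LXR DKO and WT values did not overlap for 2 (Ifi203, higher, and Ifi205, lower), beside 17.2% of all 37863 genes with a value above 0. Transgenic and WT did not overlap for 1 of the 6 (Ifi207, lower in transgenic), beside 21.4% of all genes, and transgenic and LXR DKO for 2 of the 6 (Ifi207 and Mndal, both lower in transgenic), beside 13.2%. None of the 6 was separated from WT in both knockout groups.

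The 7 other measured genes of the family were Ifi203-ps, Ifi206, Ifi208, Ifi209, Ifi211, Ifi213 and Ifi214. Ifi206, Ifi208, Ifi213 and Ifi214 were at 0.146 RPKM or less in all libraries. Ifi209 was at 0.314, 1.41 and 0.833 RPKM across WT, 0.323, 0.539 and 0.735 across LXR DKO and 0.183, 0.281 and 0.208 across transgenic libraries, where it was lowest. Ifi211 had mean levels of 5.09 ± 1.57, 5.64 ± 0.932 and 6.69 ± 1.80 RPKM (SD, n = 3 each) in WT, LXR DKO and transgenic, and LXR DKO minus WT was 0.15 ± 0.23 (log2, limma adjusted p = 0.731). Of its stretches of 50 bases, 72.8% occur in other genes, mostly family members, so its value is uncertain.

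Ifi203-ps, a pseudogene of Ifi203, was at 0.0622, 0.0317 and 0.150 RPKM across WT, 0.355, 0.327 and 0.488 across LXR DKO and 0.228, 0.352 and 0.173 across transgenic libraries. Both knockout groups lay above WT, on 3 to 18 reads in WT and 15 to 43 in the others. The read-based fit gave 2.37 ± 0.53 for LXR DKO minus WT (log2, limma-voom adjusted p = 0.0370) and 1.70 ± 0.56 for transgenic minus WT (limma-voom adjusted p = 0.0979). The gene was under the RPKM filter of the main test. Of the WT libraries only WT 3 had the 10 reads of the read filter, so the gene entered that fit through knockout libraries. This limits what these p-values show. Ifi203-ps shares 24.3% of its stretches of 50 bases with Ifi203, so part of its reads may be those of Ifi203, or the reverse.

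The closest gene to Ifi202b to move with it was Gm18445, an unprocessed pseudogene with family sequence between Ifi202b and Ifi205 (173986926 to 174001972, minus strand). It was at 0.147, 0.140 and 0.302 RPKM across WT, 2.22, 1.85 and 1.80 across LXR DKO and 1.28, 2.54 and 1.18 across transgenic libraries. No knockout library came near the WT range, and the LXR DKO and transgenic values overlapped. LXR DKO minus WT was 1.31 ± 0.19 on the log2 scale (limma adjusted p = 0.00479) and transgenic minus WT was 1.12 ± 0.19 (limma adjusted p = 0.00949). Gm18445 was below 1 RPKM in all WT libraries and entered the test only through knockout libraries, which limits what these p-values show. The call in transgenic minus WT was lost with a macrophage marker score as covariate (0.98 ± 0.32, limma adjusted p = 0.0712). That score was 2.75 to 3.10 across transgenic and 3.39 to 4.18 across WT and LXR DKO libraries. It thus separates the transgenic group, and the effects of score and group cannot be told apart. The values rest on 4 to 11 reads per WT library and 31 to 72 in the others, and 13.0% of the stretches of 50 bases of Gm18445 occur in other genes, mainly Ifi207.

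Taking reads instead of RPKM, the share of Ifi202b in the reads of the 14 family genes was 2.84%, 1.89% and 3.05% in WT 1 to 3. LXR DKO 1 to 3 had 46.6%, 45.6% and 49.4%, and transgenic 1 to 3 had 51.0%, 52.3% and 48.7%. About the same share was thus taken in each of the 6 knockout libraries. The other 13 genes together had 1470 to 2545 reads across WT, 2098 to 2865 across LXR DKO and 1550 to 2627 across transgenic libraries, and these ranges overlapped. These reads are not scaled to library size, which ran from 29353110 to 43264167 reads in genes, so their overlap does not show that the groups had like levels.

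**Figure D2:**
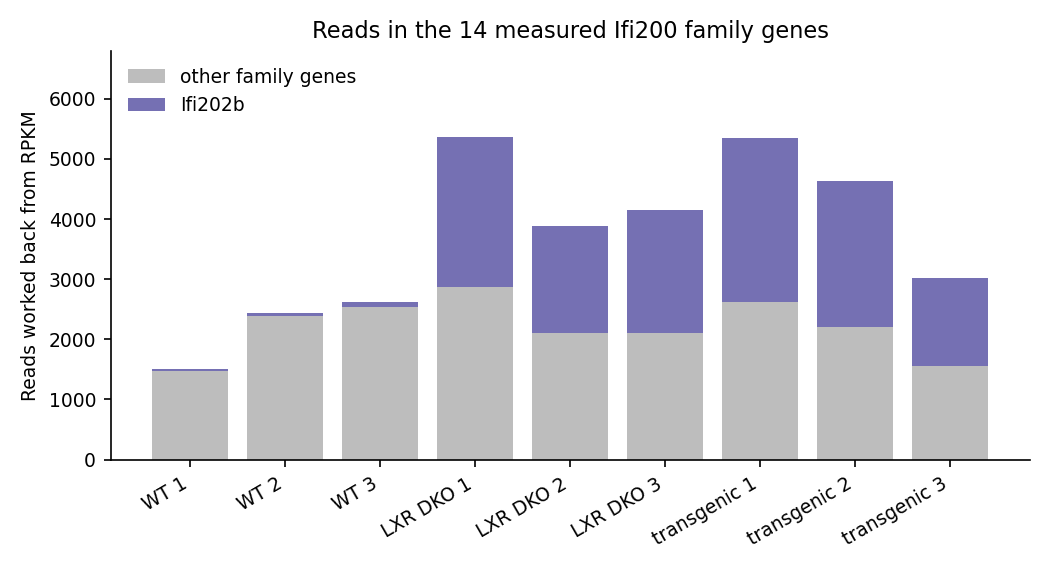
Reads worked back from RPKM in the 14 measured family genes (vertical axis, from 0), stacked per library with Ifi202b in purple and the other 13 genes in grey. The grey parts lie between 1470 and 2865 reads in all 9 libraries, and the purple part is 43 to 80 reads in WT and 1471 to 2730 in the others. Reads are not scaled to the depth of each library.

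Genes on both sides of the cluster were then compared, to see how far a difference reached along the chromosome. Of the 82 tested genes outside the family within 5 Mb of the cluster, 20 (24.4%) passed in LXR DKO minus WT, 7 higher and 13 lower. On the rest of chromosome 1 it was 101 of 888 (11.4%), and on other chromosomes 10.5%. In transgenic minus WT 19 of the 82 (23.2%) passed, 7 higher and 12 lower, beside 12.4% on the rest of the chromosome and 11.8% on other chromosomes. Transgenic minus LXR DKO had 0 of 82, beside 0.123% on other chromosomes. At so low a share, a count of 0 does not show that these genes were alike in both groups. Among the genes that passed against WT, Gm18445, Itln1, Mir6546 and Gm9765 (all higher) entered the test only through knockout libraries. Gm37125 (lower) entered it only through WT libraries. The share within 5 Mb was above that on other chromosomes in each setting run, but no test of the difference was made, and genes of 1 region are not independent. The count in LXR DKO minus WT was 12 without LXR DKO 3 and 13 without WT 2, and that in transgenic minus WT was 12 without transgenic 2, transgenic 3 or WT 2.

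**Figure D3:**
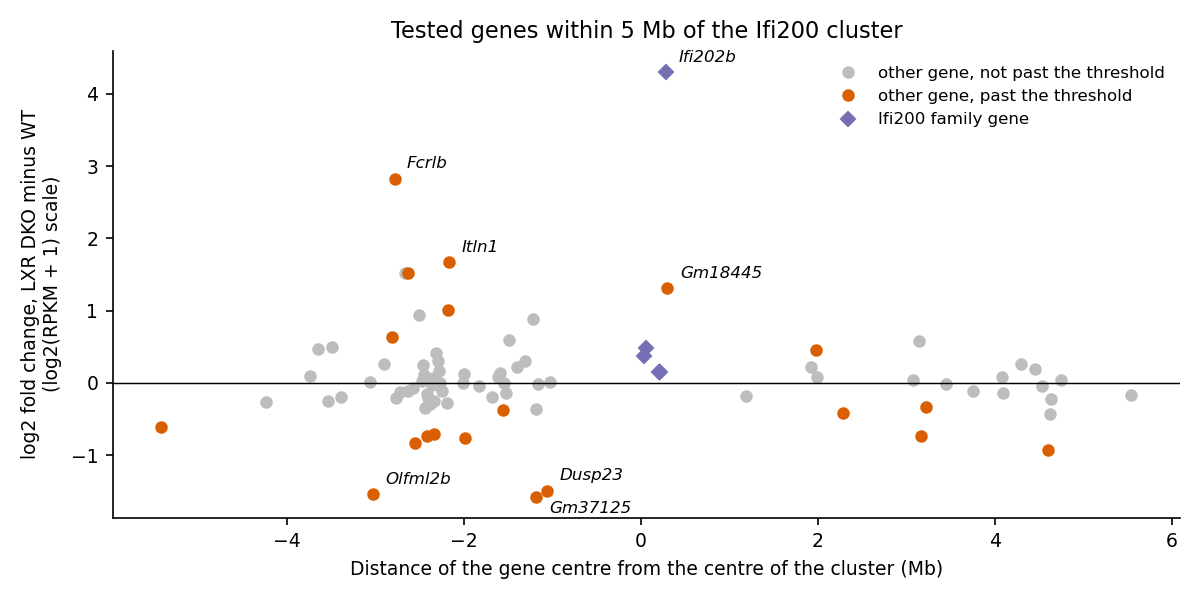
Log2 fold change of LXR DKO minus WT on the log2(RPKM + 1) scale for tested genes within 5 Mb of the cluster, against the distance of each gene's centre from the centre of the cluster in Mb. Purple diamonds are family genes, orange points other genes past the threshold and grey points the rest; Ifi202b, at 4.30, is the highest, followed by Fcrlb at 2.82.

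The nearest genes on the low side were Gm2710, Dusp23, Cfap45, Gm37125 and Tagln2. Dusp23, a dual-specificity phosphatase 718 kb from the cluster, was at 6.75, 5.84 and 7.61 RPKM across WT, 2.05, 1.82 and 1.40 across LXR DKO and 1.97, 1.85 and 1.99 across transgenic libraries. WT was above all 6 others, and LXR DKO minus WT was -1.49 ± 0.13 (log2, limma adjusted p = 0.000347). Gm37125, 836 kb away, fell from 2.68 ± 0.525 RPKM in WT to 0.228 ± 0.0709 in LXR DKO and 0.194 ± 0.113 in transgenic (SD, n = 3 each; LXR DKO minus WT -1.57 ± 0.15, log2, limma adjusted p = 0.000545). Gm2710, Cfap45 and Tagln2 did not pass, with values of 0.01, -0.01 and -0.36 for LXR DKO minus WT. Genes near the cluster on the high side included Fh1, Opn3, Chml and Rbm8a2. Opn3 was higher in LXR DKO (0.45, limma adjusted p = 0.0273) and Rbm8a2 lower (-0.42, limma adjusted p = 0.0262). Both calls were lost without some libraries, with a limma adjusted p of up to 0.0786 for Opn3 (without LXR DKO 2) and 0.0976 for Rbm8a2 (without LXR DKO 3). Some settings that kept all libraries also lost them. Of 20 alternatives, 11 kept the Opn3 call and 14 that of Rbm8a2.

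Fcrlb, an Fc receptor-like gene 2438 kb from the cluster, was far higher in both knockout groups. It was at 1.22, 1.85 and 0.679 RPKM across WT, 15.2, 16.1 and 12.7 across LXR DKO and 18.7, 24.8 and 18.5 across transgenic libraries. The 6 knockout libraries all lay above WT, by 2.82 ± 0.20 in LXR DKO (log2, limma adjusted p = 0.000124) and 3.29 ± 0.20 in transgenic (limma adjusted p = 6.1e-05). Olfml2b, an extracellular matrix gene, went the other way, from 42.4 ± 8.10 RPKM in WT to 13.8 ± 1.41 in LXR DKO and 16.2 ± 0.905 in transgenic (SD, n = 3 each; LXR DKO minus WT -1.54 ± 0.13, log2, limma adjusted p = 0.000387). Genes of the window thus lay on both sides of WT.

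Itln1, encoding the lectin intelectin 1, was listed at 0.0745 RPKM or less in WT and was at 1.98 to 2.85 in LXR DKO and 3.10 to 9.22 in transgenic libraries (LXR DKO minus WT 1.67 ± 0.30, log2, limma adjusted p = 0.0111, and 0.0565 without WT 1 and LXR DKO 1). Mir6546 and Gm9765 were listed at 0 in all WT libraries and were at 1.45 to 2.34 and 0.632 to 1.26 RPKM in LXR DKO. These LXR DKO values rest on 3 to 5 reads per library for Mir6546, a gene of 62 bases. For Gm9765, of 321 bases, they rest on 7 to 17 reads. Itln1, Mir6546 and Gm9765 were below 1 RPKM in all WT libraries and entered the test only through knockout libraries. Dusp12 was also higher in LXR DKO. The other genes of the window past the threshold in LXR DKO minus WT were lower there, among them Sdhc, which encodes a subunit of succinate dehydrogenase (-0.84), Ppox, an enzyme of heme synthesis (-0.73), Gm37486, Tma7-ps, Pfdn2, Pex19, Sdccag8 and Gm38053. The calls of Pfdn2, Pex19, Sdccag8, Gm38053 and Gm9765 were lost when some single libraries were left out. Without LXR DKO 3 the limma adjusted p was 0.0512 for Pfdn2, 0.157 for Pex19, 0.162 for Sdccag8 and 0.0850 for Gm38053. It was 0.106 for Gm9765 without LXR DKO 2. Settings that kept all libraries also cost calls. Pfdn2 kept its call in 19, Pex19 in 4 and Sdccag8 in 3 of 20 alternatives, and Gm38053 in 11 and Gm9765 in 10 of 19.

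The genes outside the family whose log2(RPKM + 1) values followed Ifi202b most closely over the 9 libraries were on other chromosomes. Acvrl1, an endothelial-type receptor of the TGF-beta family on chromosome 15, had a Pearson r of 0.996. It was followed by AI506816 (chromosome 5, 0.994), Gm44954 (chromosome 7, 0.992), Cers4, a ceramide synthase (chromosome 8, 0.991), and Matn2, a matrix protein (chromosome 15, 0.990). Acvrl1 was at 1.69 to 2.47 RPKM across WT, 17.7 to 23.2 across LXR DKO and 18.7 to 22.9 across transgenic libraries. Of 16417 genes compared, 82 had an r above 0.95, and Gm18445 had 0.962. The libraries form clusters of low WT and high knockout values, so these r values are a description of that split and were not tested.

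Interferon signalling and response genes were set beside the cluster. Over all tested genes 10.6% passed in LXR DKO minus WT and 11.9% in transgenic minus WT. The lists are short, and their counts were not compared with these shares by a test. Of 14 interferon receptors and signal transducers, 1 was higher in LXR DKO and 0 were lower, with a median log2 difference of 0.12 (0.02 over all genes). That gene was Irf1, the transcription factor that binds response elements, at 4.52, 5.58 and 6.76 RPKM across WT, 11.1, 12.0 and 10.7 across LXR DKO and 9.34, 10.4 and 11.8 across transgenic libraries. All knockout libraries lay above WT, by 0.90 ± 0.14 in LXR DKO (log2, limma adjusted p = 0.0056) and 0.81 ± 0.14 in transgenic (limma adjusted p = 0.0093). In transgenic minus WT, Irf1 was higher and Ifngr2, a chain of the interferon gamma receptor, was lower (-0.38, limma adjusted p = 0.0371). The Ifngr2 call was lost without single libraries (limma adjusted p = 0.114 without transgenic 3).

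Of 34 interferon-stimulated genes outside the cluster 27 were tested, and 0 passed in LXR DKO minus WT, beside 10.6% of all tested genes. The median log2 difference of the list was 0.51, and it was 0.10 without WT 1 and LXR DKO 1. In transgenic minus WT, where 11.9% of all tested genes passed, 4 of 27 were higher and 0 lower, with a median of 0.70 (0.01 over all genes). They were Cmpk2 (1.27 ± 0.31, limma adjusted p = 0.0348), Irgm1 (1.11 ± 0.30, limma adjusted p = 0.0448), Igtp (0.91 ± 0.24, limma adjusted p = 0.0424) and Ifih1, an RNA sensor (0.71 ± 0.16, limma adjusted p = 0.0296). That count depended on single libraries and on the fit. It was 0 without WT 1, transgenic 2 or transgenic 3, 1 without WT 2, transgenic 1 or LXR DKO 2, 2 without LXR DKO 3, and 14 without WT 3. With no filter, or with only the 2 groups compared, it was also 0. With voom it was 2, with voom and the read filter 1, and with replicate number as a block 2. In the other settings that kept all libraries it stayed at 4. In LXR DKO minus WT it was 5 without WT 3. In transgenic minus LXR DKO 0 of 27 passed, beside 0.116% of all tested genes.

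The list of cytosolic DNA sensing and inflammasome genes, the pathway in which AIM2 acts, had 10 of 15 measured genes in the test. In LXR DKO minus WT, where 10.6% of all tested genes passed, 3 were higher and 0 lower (median 0.41). Il18, a cytokine that caspase-1 cleaves, was at 6.01, 8.36 and 7.53 RPKM across WT, 18.8, 15.7 and 18.7 across LXR DKO and 14.3, 15.6 and 21.6 across transgenic libraries. All 6 knockout libraries were above WT, by 1.18 ± 0.16 in LXR DKO (log2, limma adjusted p = 0.0040) and 1.12 ± 0.16 in transgenic (limma adjusted p = 0.0055). Il1b, the other such cytokine, was higher in LXR DKO (1.73 ± 0.35, limma adjusted p = 0.0175), with its values spread from 4.21 to 12.8 RPKM there and from 1.30 to 2.07 in WT. Neutrophil markers had a summed RPKM of 4.51, 19.7 and 12.4 for LXR DKO 1 to 3, in the same order as Il1b there. Il1b was at 4.21, 12.8 and 8.45 RPKM in these libraries. In the other groups the order differed. WT 1 to 3 had 1.25, 1.54 and 8.14 for the markers and 1.30, 2.07 and 1.66 for Il1b. Transgenic 1 to 3 had 10.5, 7.46 and 13.2 for the markers and 2.13, 3.31 and 4.90 for Il1b. The part of neutrophils in the Il1b difference was not tested. Ikbke, a kinase upstream of interferon genes, was higher in LXR DKO (0.90 ± 0.22, limma adjusted p = 0.0354) and in transgenic libraries (0.83 ± 0.22, limma adjusted p = 0.0431). It was at 0.317, 0.494 and 1.07 RPKM across WT and so entered the test through knockout libraries, which limits what these p-values show. The calls of Il1b and Ikbke in LXR DKO were lost without LXR DKO 3 (limma adjusted p = 0.0717 and 0.108), and that of Ikbke in transgenic was lost in 11 of 19 alternatives (limma adjusted p = 0.146 without transgenic 3). Transgenic minus LXR DKO had 0 of 10, beside 0.116% of all tested genes.

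The family is known from leukocytes, so leukocyte markers were read in the same libraries. The summed RPKM of 15 macrophage markers was 554, 611 and 1300 for WT 1 to 3, 667, 1209 and 824 for LXR DKO 1 to 3, and 450, 396 and 555 for transgenic 1 to 3. WT 3 had the highest sum and transgenic 2 the lowest, and WT and LXR DKO overlapped. Of the 14 macrophage markers tested 0 passed in LXR DKO minus WT, beside 10.6% of all tested genes. In transgenic minus WT 5 were lower, beside 11.9% of all tested genes passing. The summed RPKM of the 34 interferon-stimulated genes was 438, 607 and 941 across WT, 656, 793 and 530 across LXR DKO and 838, 964 and 778 across transgenic libraries, with WT spanning the LXR DKO range. The sum of 12 lymphocyte markers was 25.6 to 64.5 across WT, 27.6 to 38.9 across LXR DKO and 22.7 to 26.4 across transgenic libraries, and that of 6 dendritic cell markers was 2.81 to 3.91, 3.44 to 3.56 and 2.48 to 2.89. Neutrophil markers summed to 1.25 to 8.14, 4.51 to 19.7 and 7.46 to 13.2 RPKM, and endothelial markers were at 1.72 to 3.57, 3.01 to 5.70 and 2.32 to 2.72. Oviduct epithelium markers summed to 384 to 1989 across WT, 564 to 1054 across LXR DKO and 1764 to 2408 across transgenic libraries. The part of any of these cell types in the Ifi202b values was not tested.

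**Figure D4:**
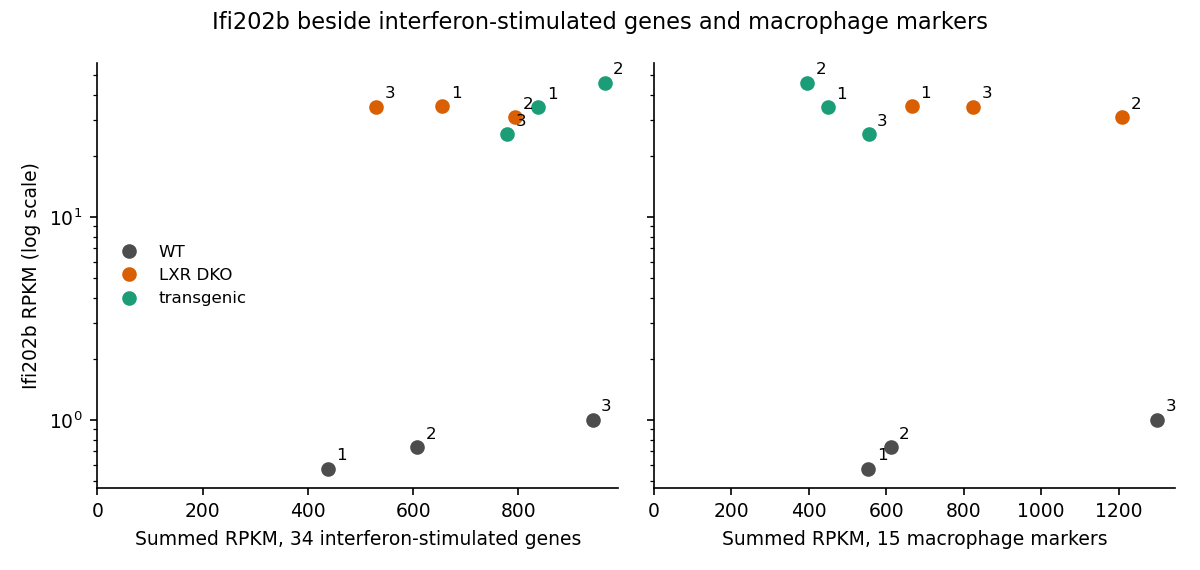
Ifi202b RPKM (log axis) against the summed RPKM of 34 interferon-stimulated genes (left) and of 15 macrophage markers (right), 1 point per library, coloured by genotype and numbered by replicate. WT spans 438 to 941 and 554 to 1300 on the horizontal axes, overlapping LXR DKO on both.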

How the data were processed

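RNA sequencing values of 9 corona radiata libraries, 3 per genotype, were used. The authors deposited RPKM values per gene; per the submitters' processing notes the build was mm10 and the tools included DESeq2 1.2.8, HTSeq 0.5.4p5, HISAT2 2.1.0 and cutadapt, in roles that are unstated. Annotation, strand setting and treatment of multiply mapped reads are likewise not given in the sources used. Values were log2(RPKM + 1) transformed. Genes reaching 1 RPKM in 3 or more libraries (16422 of 54838) entered 1 limma 3.58.1 model (R 4.3.3) with genotype, moderated variances with a trend and Benjamini-Hochberg adjustment over all of them, with a threshold of 0.05. The fit was tested on simulated data. Reads were worked back from RPKM and GENCODE M21 exon lengths: all 9 values were whole, within 0.02 reads, for 98.1% of 37847 expressed genes, and limma-voom on them was an alternative, with a filter of at least 10 reads in at least 3 libraries (chosen after seeing the data).

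The members and gene lists were chosen with earlier results of these data known. Named genes were all members and family genes, the 5 nearest tested genes on each side, genes within 5 Mb past the threshold in LXR DKO minus WT, the 5 most correlated with Ifi202b, and up to 4 called genes per pathway list. Gm18445, inside the cluster but outside the family list, falls under the 5 Mb rule. Some genes that these rules name are not reported here.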

Additional observations from a re-analysis of the deposited data

How the results depend on the processing

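Each of 130 results was recomputed under those of 20 alternative settings in which it had a value (1 for genes under the RPKM filter). Of these results 119 were never reversed, but the 130 include counts of genes, which have no direction. No result past its threshold changed direction. In 213 recomputations a call was weakened or lost, against 1757 that stayed the same. Ifi202b minus WT ranged from 4.19 to 5.47 in LXR DKO and from 4.13 to 5.50 in transgenic libraries. The count of members past the threshold was 0 throughout. The number of genes past the threshold was 1739 in LXR DKO minus WT, but 1032 with no filter and 807 with only the 2 groups compared; it was 1949 in transgenic minus WT, but 1096 with no filter. In transgenic minus LXR DKO it was 19, but 1335 with the macrophage score, 93 with only the 2 groups, 31 with quantile normalization and 8 with the replicate block. The macrophage score was lower in all transgenic libraries than in any other library, so it is confounded with that group. Leaving out single libraries gave 609 to 2140, 650 to 3555 and 6 to 150, and 12 to 22 and 12 to 23 for genes within 5 Mb of the cluster. Whether the replicate numbers pair the libraries was not settled: 3 of 9 same-numbered pairs deviated together with r above 0.1 (-0.29 to 0.67), against 9 of 18 other pairs. The highest r, 0.67, was that of WT 1 with LXR DKO 1. Deviations from a mean of 3 libraries sum to 0 in each group, which ties these r values together, so they cannot exclude pairing. The replicate block gave 1178 and 1513 genes in the comparisons with WT.

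Values near 0 changed sign. With the macrophage score they were -0.21 for Ifi204, 0.21 for Mndal and -0.0061 for Ifi202b in transgenic minus LXR DKO, 0.30 for Mndal and 0.0919 for Gm38053 in transgenic minus WT, and -0.0133 for Gm2710 in LXR DKO minus WT. Mndal in transgenic minus WT was 0.0067 with a pseudocount of 0.1, 0.0244 with voom and 0.0276 with voom and the read filter. Cfap45 in LXR DKO minus WT was 0.10, 0.0739 and 0.0595 under these, and Chml in transgenic minus WT was 0.0194 and 0.0323 under both voom fits. Without WT 1 and LXR DKO 1, LXR DKO minus WT was -0.0906 for Mndal, -0.15 for Ifi211 and -0.17 for Gm2710. Leaving out single libraries gave -0.17 to 0.24 for Ifi202b and -0.12 to 0.23 for Ifi204 in transgenic minus LXR DKO. In LXR DKO minus WT it gave -0.08 to 0.27 for Mndal, -0.05 to 0.33 for Ifi211, -0.36 to 0.69 for Cfap45, -0.09 to 0.10 for Gm2710 and -0.055 to 0.28 for Chml, and in transgenic minus WT -0.26 to 0.0935 for Mndal and -0.16 to 0.18 for Chml. The cause was not tested. Depth limited Aim2, with 1 to 34 reads, and 3 family genes with at most 39.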
